A study of Mus musculus with 16 samples.

Results

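Keratins 8, 18, 7 and 19 and a small set of bile duct genes were read in the livers of 16 mice, to ask how the epithelial filament genes of liver stood in each combination of genotype label and diet. The set was chosen by gene symbol and held 7 genes, the keratins Krt8, Krt18, Krt7 and Krt19, the adhesion gene Epcam, the transcription factor gene Sox9 and the osteopontin gene Spp1. The platform annotation gave 1 row of the array to each of 5 of them, out of 16593 symbols in all, and Epcam and Spp1 were not analysed here. Group Tg_WD was 4 male C57BL/6 mice labelled Cyp7a1 transgenic and kept on a Western diet, with 42% of calories from fat and 0.2% cholesterol. Group WT_WD was 4 wild type littermates on the same diet. Groups Tg_Chow and WT_Chow were 4 transgenic and 4 wild type mice on standard chow. All 16 mice were caged singly, began the diet at 12 to 14 weeks of age, kept it for 4 months and were fasted for about 16 h, and the labels give an age of 6 months. Neither the labels nor the design text name the promoter or the species of the transgene, or its founder lines.

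Keratins are the intermediate filament proteins of epithelia and assemble as pairs of a type II and a type I chain. Hepatocytes make the pair of keratin 8 and keratin 18, which braces the cell against stress and is known to be raised in injured liver. Cholangiocytes, the cells that line bile ducts, make the same pair and add keratins 7 and 19, the surface protein EpCAM, the transcription factor SOX9 and the secreted protein osteopontin. Misfolded keratin 8 and 18, gathered with ubiquitin, p62 and small heat shock proteins, form the Mallory-Denk bodies of steatohepatitis.

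The values are log2 signals, and each mouse is 1 array. As a gauge of background, the 95th percentile of 1234 rows for smell, pheromone and bitter taste receptors was taken in each group. It lay at 6.18 in Tg_WD, 6.14 in WT_WD, 6.19 in Tg_Chow and 6.16 in WT_Chow, and a row under it is called near background. The mean scanner signal of the arrays ran from 348.1 to 446.6, and 4 arrays in a group limit the precision of every value. Cyp7a1, the gene named by the transgene, was lower in the livers labelled Tg, at 6.20 to 7.33 in Tg_WD, 10.00 to 12.41 in WT_WD, 6.43 to 7.84 in Tg_Chow and 11.30 to 12.27 in WT_Chow. The targeted gene thus ran against the labels, and whether its row reads the transgene is not known here, so the words Tg and WT stand for what the mice were labelled. Hepatocyte markers were bright in all groups (Ttr at 14.36 to 14.50 and Apoa1 at 14.45 to 14.60 in group means), except Alb at 6.41 to 6.80 and Tat, which was near background in all 4 groups.

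Of the 5 measured genes, the filament pair of the hepatocyte stood far above background. The Krt8 row lay 5.12 to 6.37 log2 units above the limit in the 4 group means and the Krt18 row 4.21 to 4.66. The Sox9 row lay 0.30 to 0.49 above it, with no array under the limit. The Krt7 row lay 0.03 to 0.18 above it, with 4 of 16 arrays under the limit. The Krt19 row was under the limit on all 16 arrays, and Krt19 was also the single member under the median of all rows in every group. For Krt19 and Krt7 the array therefore gives little room to see a fall.

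**Figure D1:**
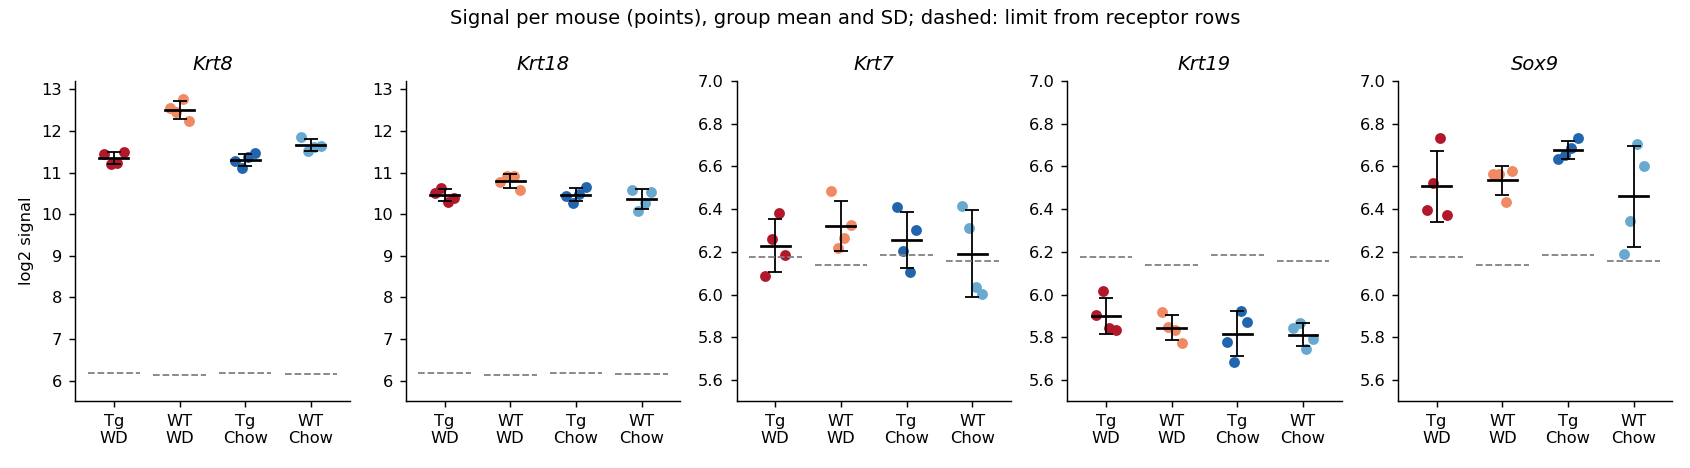
Each point is the log2 signal of 1 mouse, with the group mean and SD of 4 mice in black and the background limit of that group dashed. The panels of Krt8 and Krt18 share one vertical scale, and those of Krt7, Krt19 and Sox9 share a narrower one that does not start at 0. Krt8 is highest in WT_WD and all Krt19 points lie under the dashed lines.

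Krt8 and Krt18 are neighbouring genes on mouse chromosome 15 and point away from each other, with 23874 bases between their starts. Their promoters are shown because both genes rose in WT livers on the Western diet. The sequences are from RefSeq (GRCm38.p6), 250 bases before and 20 after each start, 5′ to 3′ on the strand of the gene, with motif matches in capitals.
Krt8, chr15:102004323-102004592, minus strand: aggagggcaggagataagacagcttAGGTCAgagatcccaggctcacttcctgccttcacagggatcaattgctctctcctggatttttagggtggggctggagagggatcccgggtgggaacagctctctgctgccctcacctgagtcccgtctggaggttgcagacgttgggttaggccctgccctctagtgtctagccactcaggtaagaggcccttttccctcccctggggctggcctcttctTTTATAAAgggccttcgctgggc
Krt18, chr15:102027966-102028235, plus strand: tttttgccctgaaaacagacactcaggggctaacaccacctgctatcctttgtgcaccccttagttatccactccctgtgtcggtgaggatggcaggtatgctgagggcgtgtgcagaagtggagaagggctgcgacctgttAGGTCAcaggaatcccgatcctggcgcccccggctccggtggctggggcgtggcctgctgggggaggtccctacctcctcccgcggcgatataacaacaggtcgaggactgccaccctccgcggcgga
The searches covered both strands of 300 bases, 250 before and 50 after the start, in 32851 promoters. Both promoters hold AGGTCA, a motif of many nuclear receptors, at position -225 in Krt8 and -108 in Krt18, as do 16.3% of all promoters. The Krt8 promoter also holds the TATA box motif TATAAA on both strands in overlapping copies across the annotated start, a motif found in 13.6% of all promoters. Neither holds CCAAT (37.4% of all), GGGCGG, the GC box (35.7%), or TGANTCA, the motif of AP-1 (7.8%). These are letter matches only, and 58.0% of the Krt8 window and 61.3% of the Krt18 window is G or C, against a median of 52.7% over all promoters. Promoter entries were also found for Krt7, Epcam and Spp1, so 5 of 7 genes had one, and Krt19 and Sox9 had none.

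On the Western diet, Krt8 was much lower in the Tg-labelled livers. Its log2 signal was 11.46, 11.21, 11.23 and 11.50 in Tg_WD mice, against 12.55, 12.46, 12.76 and 12.24 in WT_WD mice. The groups did not overlap. Krt8 averaged 11.35 ± 0.15 in Tg_WD and 12.51 ± 0.22 in WT_WD (SD, n = 4 each), a difference of -1.16 (SE 0.11), or 2.23-fold lower (limma adjusted p = 1.15e-06). Krt18 was 10.51, 10.62, 10.29 and 10.40 in Tg_WD mice, against 10.77, 10.93, 10.92 and 10.58 in WT_WD mice. The lowest WT_WD mouse lay under the highest Tg_WD mouse, so the groups overlapped. The Krt18 difference was -0.34 (SE 0.12, 95% interval -0.60 to -0.09) and did not pass the test (limma adjusted p = 0.116). With each array scaled to 1 median in place of the deposited scaling, Krt18 passed it (limma adjusted p = 0.0379). That scaling moved calls over all rows towards lower, to 385 higher and 986 lower, from 456 and 661.

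Among the 5 measured genes, 1 was called lower and 0 higher between genotypes on the Western diet. Of all 18138 distinct rows, 6.16% were called, 2.51% as higher and 3.64% as lower. The differences of the 5 genes had a median of -0.09, against 0.01 over all rows. None of the 3 duct genes was called. Krt7 averaged 6.23 ± 0.12 in Tg_WD and 6.32 ± 0.12 in WT_WD, and Sox9 averaged 6.51 ± 0.17 in Tg_WD and 6.54 ± 0.07 in WT_WD (SD, n = 4 each). Their differences had 95% intervals of -0.29 to 0.10 for Krt7 and -0.23 to 0.17 for Sox9. Krt19, near background, averaged 5.90 ± 0.08 in Tg_WD and 5.84 ± 0.06 in WT_WD (SD, n = 4 each). In whole liver, fewer cells of a type and less RNA per cell cannot be told apart.

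Krt8 was higher on the Western diet in WT livers. The WT_WD mice enter both this comparison and the preceding one, and the WT_Chow and Tg mice are shared in the same way among those that follow. Krt8 was 12.55, 12.46, 12.76 and 12.24 in WT_WD mice, against 11.86, 11.51, 11.62 and 11.63 in WT_Chow mice. Every WT_WD mouse lay above every WT_Chow mouse. The rise was 0.85 (SE 0.11), or 1.80-fold (limma adjusted p = 5.32e-05). Krt18, the partner chain, was 10.77, 10.93, 10.92 and 10.58 in WT_WD mice, against 10.58, 10.08, 10.28 and 10.52 in WT_Chow mice. These groups lay almost edge to edge without overlapping. The rise of Krt18 was 0.43 (SE 0.12), or 1.35-fold (limma adjusted p = 0.0306). That call was lost without WT_Chow replicate 2 (adjusted p = 0.113) or 3 (0.0928), or without WT_WD replicate 1 (0.0635), 2 (0.106) or 3 (0.104). It was also lost with median scaling (limma adjusted p = 0.0994). Within replicates 1 and 2 the Krt18 rise was 0.52, and within replicates 3 and 4 it was 0.35, for 2 mice against 2.

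With the diet, 2 of 5 genes were called higher and 0 lower in WT livers, where 7.49% of all rows were called, 4.61% as higher and 2.87% as lower. The median difference of the 5 genes was 0.13, against -0.01 over all rows. Krt7 averaged 6.32 ± 0.12 in WT_WD and 6.19 ± 0.20 in WT_Chow, and Sox9 averaged 6.54 ± 0.07 in WT_WD and 6.46 ± 0.24 in WT_Chow (SD, n = 4 each). Neither passed the test (limma adjusted p = 0.514 and 0.769). Krt19 averaged 5.84 ± 0.06 in WT_WD and 5.81 ± 0.05 in WT_Chow (SD, n = 4 each), under the limit in both.

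In Tg-labelled livers neither filament gene was called with the same diet. Krt8 was 11.46, 11.21, 11.23 and 11.50 in Tg_WD mice, against 11.27, 11.12, 11.36 and 11.47 in Tg_Chow mice. The values of the groups interleaved. The difference was 0.04 (95% interval -0.19 to 0.28, limma adjusted p = 0.917). Krt18 was 10.51, 10.62, 10.29 and 10.40 in Tg_WD mice, against 10.43, 10.28, 10.48 and 10.66 in Tg_Chow mice. The difference was -0.01 (95% interval -0.26 to 0.24). By limma 0 of 5 genes were called, and 0 of 5 had an unadjusted p under 0.05, where 3.21% of all rows were called, 1.72% as higher and 1.49% as lower. The Sox9 difference was -0.17 (95% interval -0.37 to 0.03), with 6.51 ± 0.17 in Tg_WD and 6.68 ± 0.04 in Tg_Chow (SD, n = 4 each).

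**Figure D2:**
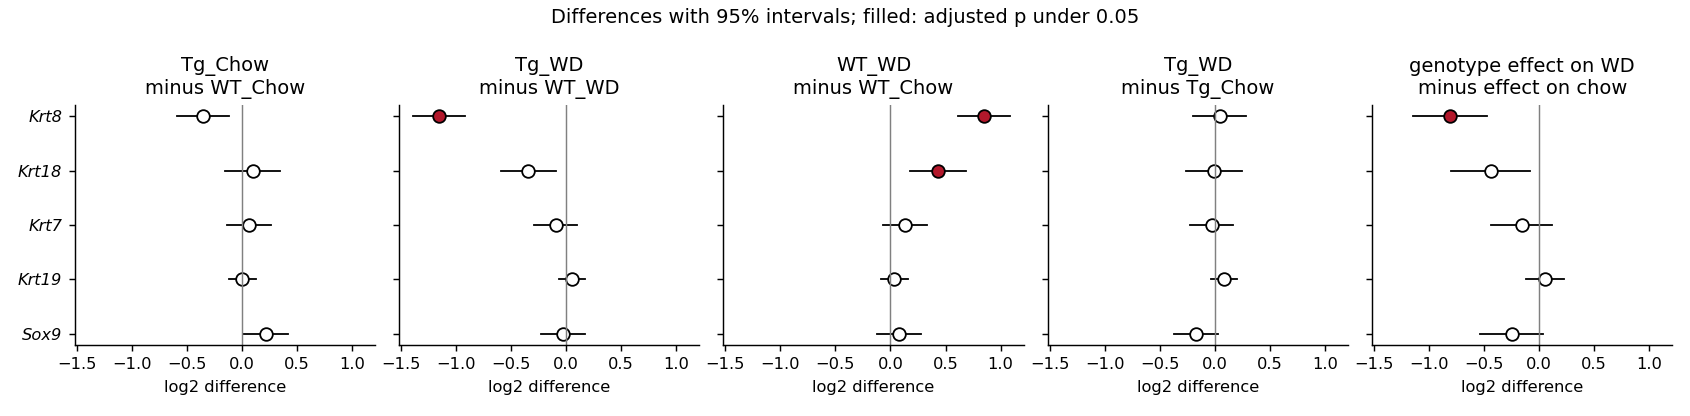
Log2 differences with 95% intervals (horizontal axis) for each gene (rows) in the 4 comparisons of groups and in the difference between the genotype effects. Filled points passed an adjusted p of 0.05. They are Krt8 on the Western diet, Krt8 and Krt18 with diet in WT, and Krt8 in the last panel.

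On chow the genotype labels differed less. Krt8 was 11.27, 11.12, 11.36 and 11.47 in Tg_Chow mice, against 11.86, 11.51, 11.62 and 11.63 in WT_Chow mice. All 4 Tg_Chow mice lay under all 4 WT_Chow mice. The difference of -0.35 (SE 0.11) nevertheless did not pass the test over all rows (limma adjusted p = 0.105). It passed with each array scaled to 1 median (difference -0.51, limma adjusted p = 0.0173). That scaling moved calls over all rows on chow towards lower, to 175 higher and 669 lower, from 277 and 321. Krt18 was 10.43, 10.28, 10.48 and 10.66 in Tg_Chow mice, against 10.58, 10.08, 10.28 and 10.52 in WT_Chow mice. These values interleaved, with a difference of 0.10 (95% interval -0.15 to 0.35).

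By limma 0 of 5 genes were called on chow, while 2 of 5 had an unadjusted p under 0.05 (Krt8 and Sox9), and 3.3% of all rows were called, 1.53% as higher and 1.77% as lower. Sox9, a transcription factor of duct and progenitor cells, was 6.64, 6.65, 6.69 and 6.74 in Tg_Chow mice, against 6.19, 6.34, 6.70 and 6.60 in WT_Chow mice. The Tg_Chow mice lay close together, and the highest of them lay just above the wide WT_Chow range, which held the other 3. The Sox9 difference was 0.22 (limma adjusted p = 0.268). Taken within replicates 1 and 2 it was 0.38, and in replicates 3 and 4 alone 0.06.

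The effect of the genotype label on Krt8 differed between diets. The Krt8 difference between genotypes was -1.16 on the Western diet and -0.35 on chow, and the difference of these effects was -0.81 (SE 0.16, limma adjusted p = 0.0111). With median scaling it was -0.64 and missed the threshold (limma adjusted p = 0.0526). For Krt18 the difference of the effects was -0.44 (95% interval -0.80 to -0.09), which did not pass the test over all rows (limma adjusted p = 0.259). Of the 5 genes 1 was called lower and 0 higher in this comparison, where 1.85% of all rows were called, 0.695% as higher and 1.16% as lower. Within replicates 1 and 2 the Krt8 difference between genotypes was -1.18 on the Western diet and -0.49 on chow, while replicates 3 and 4 alone gave -1.14 and -0.21. From high to low, the Krt8 means were ordered WT_WD, WT_Chow, Tg_WD and Tg_Chow, and of these neighbours Tg_WD and Tg_Chow did not differ beyond their spread. The highest Tg_WD mouse (11.50) and the lowest WT_Chow mouse (11.51) lay side by side, and those groups were not tested against each other. For Krt18 the order was WT_WD, Tg_Chow, Tg_WD and WT_Chow, and each group overlapped its neighbour.

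The signals of the Krt8 and Krt18 rows did not change in the same measure. Within each array, Krt8 minus Krt18 was 0.94, 0.59, 0.94 and 1.10 in Tg_WD, against 1.78, 1.53, 1.85 and 1.66 in WT_WD. It was 0.84, 0.84, 0.88 and 0.81 in Tg_Chow, against 1.29, 1.43, 1.34 and 1.11 in WT_Chow. All 8 Tg-labelled arrays lay under all 4 arrays of WT_WD, and the 4 of Tg_Chow under the 4 of WT_Chow. Because the rows differ in brightness, only differences between groups can be read. Whether both rows respond alike to a change in RNA was not tested, and the permutation test below does not address it. The change of Krt8 minus the change of Krt18 was -0.81 between Tg_WD and WT_WD, -0.45 between Tg_Chow and WT_Chow, and 0.42 between WT_WD and WT_Chow. Each of these 3 gave p = 0.0286 in a two-sided exact permutation test of 4 arrays against 4, the smallest p this design allows (0.0381 after Benjamini-Hochberg adjustment over 4 comparisons). Between Tg_WD and Tg_Chow it was 0.05 (exact permutation p = 0.657). Across the 16 arrays the signals of Krt8 and Krt18 had a Pearson correlation of 0.735, and their deviations from the group means one of 0.639, given as a description since the arrays share groups and scaling.

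**Figure D3:**
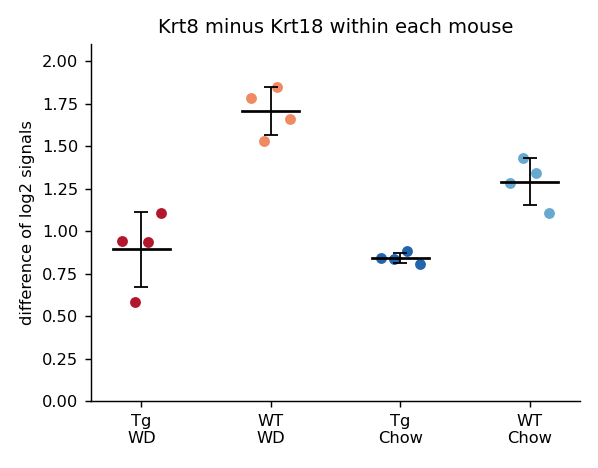
The difference of the log2 signals of Krt8 and Krt18 within each mouse (points), with group means and SD of 4 mice, on an axis that starts at 0. The WT_WD mice lie at 1.53 to 1.85, above the mice of the other groups.

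Other keratins were mostly near background. Of 43 further keratin genes with a row, 33 were near background in all 4 groups and 6 were above the limit in all 4. Of these 43, 1 was called, Krt5, the basal keratin of stratified epithelia, at 5.93 in Tg_WD and 6.11 in WT_WD (difference -0.18, limma adjusted p = 0.0337), but both means are near background. Its call was lost in 7 of 16 fits that left out a mouse and with median scaling. The remaining comparisons called 0 of 43 by limma, with 4 at an unadjusted p under 0.05 between genotypes on chow, 5 with diet in WT, 2 with diet in Tg and 5 in the difference of effects. Krt23 was chosen after its values were seen, because its WT_Chow mice fell apart. It was 9.77, 9.63, 9.36 and 9.85 in Tg_Chow mice, against 7.96, 8.04, 9.71 and 9.60 in WT_Chow mice. WT_Chow replicates 1 and 2 stood apart from the rest. The Krt23 difference was 0.83 (limma adjusted p = 0.218), with 1.70 in replicates 1 and 2 and -0.05 in replicates 3 and 4.

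**Figure D4:**
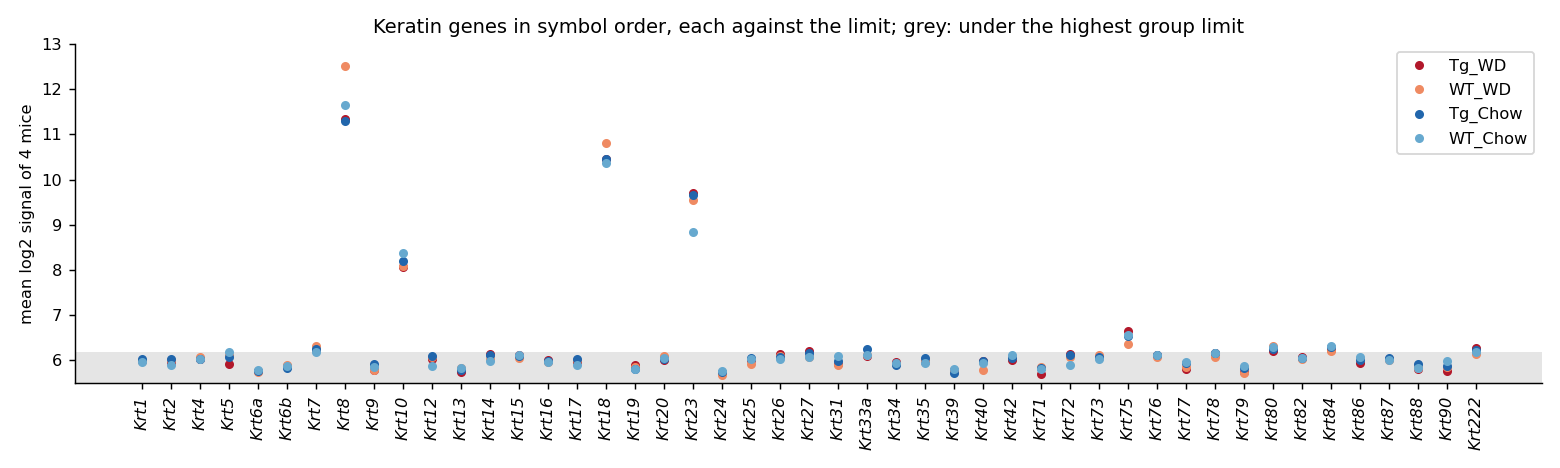
Mean log2 signal of 4 mice (vertical axis) for every keratin gene with a row, in the order of the symbols, with the 4 groups in colour and the span under the highest group limit in grey. Krt8, Krt10, Krt18 and Krt23 stand clear of the grey span in all groups, and most of the others lie in it.

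Several genes from a list of keratin partners and Mallory-Denk body genes, which also held Vim, were lower in Tg-labelled livers on the Western diet. Of its 15 measured genes 5 fell and 0 rose there (33.3%, against 6.16% of all rows), with a list median of -0.15, against 0.01 over all rows. Tgm2, the transglutaminase that cross-links keratins, was 11.30, 11.25, 11.19 and 11.16 in Tg_WD mice, against 12.06, 12.23, 11.95 and 11.70 in WT_WD mice. The groups did not overlap and the difference was -0.76 (SE 0.10, limma adjusted p = 7.57e-05). Hspb1, a small heat shock protein, averaged 8.30 in Tg_WD and 9.36 in WT_WD (difference -1.06, SE 0.26, limma adjusted p = 0.0154). Vim, the vimentin gene of mesenchymal cells, averaged 6.95 in Tg_WD and 7.68 in WT_WD (difference -0.74, SE 0.13, limma adjusted p = 0.0014). Sqstm1, which encodes p62, averaged 11.39 in Tg_WD and 11.93 in WT_WD (difference -0.54, SE 0.14, limma adjusted p = 0.0231). The Hspb1 call was lost without WT_WD replicate 2 or 3 or Tg_WD replicate 2, and the Sqstm1 call in 5 of 16 fits that left out a mouse.

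With diet in WT livers 2 of these 15 genes rose and 0 fell (13.3%, against 7.49% of all rows). They were Tgm2, by 0.89 (limma adjusted p = 1.12e-05), and Vim, by 0.79 (0.000518). With diet in Tg-labelled livers 1 of 15 fell (6.67%, against 3.21% of all rows). It was Sqstm1, at 11.39 in Tg_WD and 11.91 in Tg_Chow (limma adjusted p = 0.0481), a call lost in 12 of 16 fits that left out a mouse. On chow 0 of 15 were called by limma between genotypes and 1 had an unadjusted p under 0.05. In the difference of effects Sqstm1 (-0.89) and Vim (-0.80) were called lower (13.3%, against 1.85% of all rows). Vim lost that call in 9 of 16 fits that left out a mouse. Sqstm1 lost that call without Tg_WD replicate 4 (limma adjusted p = 0.0513) and with median scaling (0.0721).

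**Figure D5:**
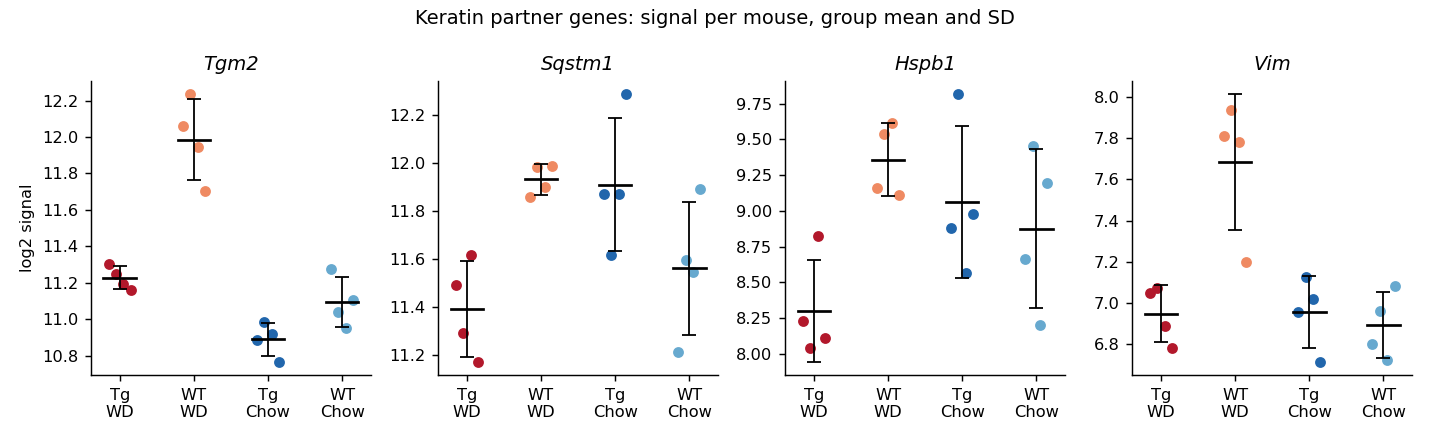
Log2 signal per mouse (points) of Tgm2, Sqstm1, Hspb1 and Vim, with group means and SD of 4 mice. Each panel has its own vertical scale that does not start at 0. In each panel all Tg_WD points lie under all WT_WD points.

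Few further bile duct genes were called. Of 24 measured genes of ducts and ductular cells 9 were near background in all groups. Between genotypes on chow 2 rose and 0 fell (8.33%, against 3.3% of all rows), and on the Western diet 1 rose and 1 fell (8.33%, against 6.16%). Cdh1, the E-cadherin gene of epithelial junctions, averaged 8.79 in Tg_WD and 7.67 in WT_WD, and 8.44 in Tg_Chow and 7.20 in WT_Chow. It was higher by 1.12 on the Western diet and 1.24 on chow (SE 0.19, limma adjusted p = 0.000717 and 0.000498). Which liver cells gave the Cdh1 signal was not tested, so it is not read as a change of ducts. Bicc1, an RNA-binding protein gene linked to cystic disease, was lower by 0.55 on the Western diet (difference -0.55, limma adjusted p = 0.00412). Anxa13, an epithelial annexin, averaged 7.27 in Tg_Chow and 6.14 in WT_Chow, near background in WT_Chow (difference 1.12, limma adjusted p = 0.00959), and the groups overlapped.

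With the Western diet 4 of the 24 duct genes rose in WT livers and 0 fell (16.7%, against 7.49% of all rows), with a list median of 0.06, against -0.01. Tspan8, a membrane tetraspanin, averaged 7.40 in WT_WD and 6.46 in WT_Chow (difference 0.94, SE 0.13, limma adjusted p = 8.84e-05), and Bicc1 rose by 0.78 (limma adjusted p = 0.00012). Aqp1, a water channel of ducts and vessels, rose by 0.76 (limma adjusted p = 0.0304) and Cldn4, a tight junction gene, by 0.28 (0.0317). Cldn4 was near background in WT_Chow (6.02, against 6.29 in WT_WD), and for both genes the groups overlapped. The call of Aqp1 was lost in 5 and that of Cldn4 in 6 of 16 fits that left out a mouse. In Tg-labelled livers 1 of 24 rose with the diet (4.17%, against 3.21% of all rows). It was Tspan8, at 7.07 in Tg_WD and 6.31 in Tg_Chow (difference 0.76, limma adjusted p = 0.00286). The difference of effects called 0 of 24 by limma, with 2 at an unadjusted p under 0.05.

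Notch and YAP genes, the pathways that drive duct fate and Sox9, had 20 measured members. Of these, 2 fell and 0 rose in Tg_WD against WT_WD (10%, against 6.16% of all rows, with a list median of -0.01), the Notch target Hey1 (difference -0.58, limma adjusted p = 1.76e-05) and the YAP target Ccn2 (difference -1.20, limma adjusted p = 0.0135). The call of Ccn2 was lost without WT_WD replicate 1 or 2 or Tg_WD replicate 1. With diet in WT livers 2 rose and 0 fell (10%, near the 7.49% of all rows). They were Hey1, by 0.52 (limma adjusted p = 5.38e-05), and the receptor gene Notch1, by 0.41 (0.0488), the second lost in 11 of 16 fits that left out a mouse. Tnfrsf12a, the TWEAK receptor of ductular cells, rose in Tg_Chow against WT_Chow (8.35 and 7.35, limma adjusted p = 0.0227, lost without WT_Chow replicate 3). It fell in Tg_WD against Tg_Chow (7.43 and 8.35, limma adjusted p = 0.0378). Tnfrsf12a was the single call in each of those comparisons (5%, against 3.3% of all rows on chow and 3.21% with diet in Tg). The fall was lost in 4 of 16 fits that left out a mouse and in the fit of the 8 arrays compared (limma adjusted p = 0.0932). In the difference of effects Tnfrsf12a (-1.64) and Hey1 (-0.54) were called lower (10%, against 1.85% of all rows).

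Spp1 itself was not analysed here, but 16 listed genes were, chiefly of osteopontin receptors, proteases and its kinase. The list also held the macrophage marker Trem2. In WT livers 4 rose with the diet and 0 fell (25%, against 7.49% of all rows), with a list median of 0.08. Mmp12, a macrophage elastase known to cut osteopontin, averaged 8.89 in WT_WD and 6.30 in WT_Chow (6.01-fold, limma adjusted p = 5.67e-08), and Trem2 rose by 1.63 (1.08e-07). The integrin gene Itgb5 rose by 0.51 (limma adjusted p = 0.0105) and the receptor gene Cd44 by 0.22 (0.0112). Cd44 averaged 6.40 in WT_WD and 6.18 in WT_Chow, where it lay 0.02 above the background limit. Between genotypes on the Western diet Mmp12 (-1.96) and Trem2 (-1.38) fell and 0 rose (12.5%, against 6.16% of all rows). Both were also called lower in the difference of effects (12.5%, against 1.85%). On chow 0 of 16 were called by limma and 0 had an unadjusted p under 0.05, and with diet in Tg-labelled livers these counts were 0 and 3.

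Many markers of macrophages and of stellate cells rose with diet in WT livers, as Krt8 did, but not every comparison ran alike. On chow the macrophage markers Vsig4 (1.44) and Cd9 (1.01) were called higher in Tg_Chow, where the Krt8 mean was lower. Of 13 macrophage markers 9 rose and 0 fell with diet in WT livers (69.2%, against 7.49% of all rows, list median 1.00). Trem2, 1 of the 13, is also in the osteopontin list. In Tg_WD against WT_WD 2 rose and 3 fell (38.5%, against 6.16%). The rise of Marco, 1 of the 2, was lost in 6 of 16 fits that left out a mouse. On chow 2 rose (15.4%, against 3.3%). With diet in Tg-labelled livers 0 were called by limma, against 3.21% of all rows (1 at an unadjusted p under 0.05). In the difference of effects 6 were lower (46.2%, against 1.85%). The summed linear signal of the 13 was 3830 to 6273 in Tg_WD, 6341 to 9544 in WT_WD, 3388 to 5859 in Tg_Chow and 1873 to 3554 in WT_Chow. Of 12 stellate cell and fibroblast markers 10 rose with diet in WT livers (83.3%, against 7.49% of all rows, list median 0.52). In Tg_WD against WT_WD 8 fell (66.7%, against 6.16%, list median -0.53). In the difference of effects 3 were lower (25%, against 1.85%). The 2 remaining comparisons called 0 by limma, with 1 on chow and 5 with diet in Tg at an unadjusted p under 0.05. The sum of the 12 was 5032 to 5621 in Tg_WD, 7674 to 8286 in WT_WD, 4406 to 5513 in Tg_Chow and 4320 to 6521 in WT_Chow. No marker is at 0 on such an array, but Cd5l and Itgax were near background among the macrophage markers in all groups. The part of these cells in the Krt8 result was not tested.

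Markers of bile duct, mesothelium and gut, tissues that carry keratins, were low and gave no call. The 5 measured cholangiocyte markers (Krt19, Krt7, Sox9, Cftr and Cldn7, of which 3 are members) had a summed signal of 358.6 to 400.8 in Tg_WD, 363.6 to 389 in WT_WD, 381.4 to 406.4 in Tg_Chow and 352.1 to 385.6 in WT_Chow. By limma 0 of 5 were called in any comparison, with 0 to 2 at an unadjusted p under 0.05. Of 6 mesothelial markers 4 were near background in all groups and 0 were called (1 at an unadjusted p under 0.05, on the Western diet), and of 5 intestinal markers 3 were near background and 0 called (0 to 2 at that unadjusted p). Hepatocyte markers summed to 81030 to 90670 in Tg_WD, 83850 to 89730 in WT_WD, 86120 to 92600 in Tg_Chow and 82000 to 87240 in WT_Chow, with overlap between groups. Of 8 hepatocyte markers Alb was called lower with diet in WT (12.5%, against 7.49% of all rows) and Cps1 with diet in Tg (12.5%, against 3.21%). The Alb row lay only 0.27 to 0.64 above the background limit in group means, so its call says little about hepatocytes. Of 8 endothelial markers 3 rose with diet in WT (37.5%, against 7.49%) and 0 were called elsewhere (2 to 4 at an unadjusted p under 0.05). Of 8 pancreatic markers Cela1 was called higher between genotypes on both diets and with diet in Tg, and Cela2a on chow. These calls were 25% of the pancreatic list on chow (3.3% of all rows) and 12.5% in each of the other 2 comparisons (6.16% and 3.21%). Among fits that left out 1 of 16 mice, Alb lost its call in 3, Cps1 in 4, Clec4g, 1 of the 3 endothelial calls, in 3, Cela1 in 5 on chow and 11 with diet in Tg, and Cela2a without Tg_Chow replicate 4. Of 9 lymphocyte and 4 adipocyte markers 0 were called by limma, with 0 to 3 and 0 at an unadjusted p under 0.05.

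The genes whose log2 signals ran most like each member over the 16 arrays were sought among 9203 genes, with Pearson's correlation as the measure. For Krt8 they were Gpx7 (0.956), a redox enzyme of the endoplasmic reticulum, Wdr1 (0.953), an actin disassembly factor, and Fmo5 (0.946), a flavin monooxygenase. For Krt18 they were Tmem51 (0.910), Lcn2 (0.895), the lipocalin 2 gene, and Cilk1 (0.887). Krt7 ran most like Cfap298 (0.894), Slc10a3 (0.729) and Lpcat3 (0.700), and Sox9 most like Sptssa (0.824), Mettl4 (0.820) and Ppfibp1 (0.800). Group means lay only 0.03 to 0.18 above the background limit for Krt7 and 0.30 to 0.49 for Sox9. So close to the limit, the names for Krt7 and Sox9 are not read as likeness. All genes named here are the highest of 9203, and what such a choice gives by chance was not tested. The arrays share groups and scaling, so these correlations are descriptions over 16 arrays.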

How the data were processed

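Liver RNA (250 ng, biotin-labelled with an Illumina kit per the labels' protocols) of 16 mice was read on 1 array each. The authors deposited log2 values for 25697 rows. How they were scaled is not stated in the labels, but the values lay within 0.0631 of quantile-normalized log2 scanner signals. The authors also deposited scanner intensities on a linear scale with no detection p, which served for alternatives. Of the rows, 12508 shared their values with another, which left 18138 distinct rows. The platform annotation named 23978 rows, and for 16944 distinct rows with 1 symbol the brightest row stood for each gene. RefSeq matched 23959 named rows.

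Rows were fitted with limma 3.58.1 in R 4.3.3 (lmFit, contrasts, eBayes with trend; 12 residual degrees of freedom, all 16 arrays, no signal filter). P-values are two-sided, adjusted by Benjamini-Hochberg over 18138 rows and called under 0.05. Errors are SE for differences and SD for levels. Promoters were searched with Python 3.11.15. The fit was tested on simulated data.

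The members, the gene lists and the markers were chosen with earlier results of these data known. Named are the members, up to 4 called genes of each of 4 context lists, any called keratin, the 3 genes most like each member and Cyp7a1; any further name was picked with its values in view. Alternatives were scanner signals with normexp (offset 50) and quantile scaling or with median scaling, rows of the upper part by mean signal, no trend, replicate numbers as a block, a term for replicates 1 and 2 against 3 and 4, the 8 arrays compared, another background limit, and each mouse left out.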

Additional observations from a re-analysis of the deposited data

Results flagged for a closer look

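In 180 groups of 4 mice checked by Dixon's test, 5 held a mouse far from the other 3, and chance alone marks about 1 in 20 groups. Sox9 in WT_WD replicate 3 was 6.43, against 6.56 to 6.58 in the other mice (gap 0.885 of the range). Ccn2 in WT_Chow replicate 4 was 10.16, against 9.15 to 9.28 (0.865). Cd44 in WT_Chow replicate 2 was 6.13, against 6.19 to 6.20 (0.910). Lgals3 in WT_WD replicate 4 was 10.66, against 11.45 to 11.53 (0.912). Cela2a in WT_Chow replicate 4 was 5.80, against 6.07 to 6.10 (0.896).

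The effect of the genotype label on the Western diet differed from its effect on chow, by limma's interaction term, for Krt8 (-0.81 on the log2 scale) and for 14 genes of the context and marker lists. In the list of keratin partners and Mallory-Denk body genes these were Vim (-0.80) and Sqstm1 (-0.89), and among Notch and YAP genes Tnfrsf12a (-1.64) and Hey1 (-0.54). The macrophage elastase gene Mmp12 (-2.01) and the macrophage marker Trem2 (-1.53) stood in the osteopontin list. The macrophage markers Vsig4 (-1.85), Cd9 (-1.11), Gpnmb (-1.93), Lgals3 (-2.02) and Lyz2 (-2.70, a gene with a near-identical copy that its row could also read) and the stellate markers Timp1 (-0.77), Lum (-0.98) and Dcn (-0.75) followed. The difference of Lum lost its call in 12, that of Vim in 9, Vsig4 in 5 and Lyz2 in 2 of 16 fits that left out a mouse, and that of Sqstm1 without Tg_WD replicate 4. With median scaling the differences of Krt8 (adjusted p = 0.0526), Sqstm1 (0.0721) and Dcn (0.104) missed the threshold, and without trend that of Lum did (0.0591). All 15 are negative, where 1.85% of all rows were called, 0.695% as higher and 1.16% as lower. The lists were chosen with earlier results of these data known, and the causes of these differences were not tested.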

How the results depend on the processing

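For the 5 measured genes the settings gave 555 values with the same direction and call as reported or with no call in either fit, 2 gained and 8 lost calls, and 0 turned sign with a call. The Krt8 difference between Tg_WD and WT_WD kept its call in all 23 settings (-1.25 to -1.07), as did its rise in WT_WD against WT_Chow (0.70 to 0.94). With median scaling, the number of member genes called was 1 between genotypes on chow, 2 on the Western diet, 1 with diet in WT and 0 in the difference of effects (reported as 0, 1, 2 and 1). With the 8 arrays of the groups compared, the member count with diet in WT was 1 (Krt18 adjusted p = 0.0666) and all rows called between genotypes on chow were 273 (reported as 598). Leaving out each mouse moved the member count with diet in WT between 1 and 2, all rows called between genotypes on chow between 335 and 776, and those with diet in Tg between 324 and 749 (reported as 583). The lowest counts came without WT_Chow replicate 3 (335) and Tg_Chow replicate 4 (396) on chow. With diet in Tg they came without Tg_Chow replicate 1 (371) or Tg_WD replicate 1 (324), 2 (339) or 4 (344). Median scaling also changed the split of calls, to 175 higher and 669 lower on chow (20.7% higher, reported as 46.3%), 385 and 986 on the Western diet (28.1%, reported as 40.8%) and 264 and 139 with diet in Tg (65.5%, reported as 53.5%). Deviations from the group means were compared between mice of different groups, and their correlations ran from -0.261 to 0.262. Of same-numbered pairs 9 of 24 correlated over 0.1 (median 0.014), against 16 of 72 different-numbered pairs (median -0.015). Different-numbered pairs within replicates 1 and 2 or within 3 and 4 had a median of 0.061 (24 pairs). Those across these sets had a median of -0.065 (48 pairs). Deviations sum to 0 within each group, so these medians are tied to each other. With the replicate number as a block, the member counts were 0, 1, 2, 0 and 1 in the order of genotype on chow and on the Western diet, diet in WT and in Tg, and the difference of effects, all as reported. Among the other named genes the block ended the calls of Cldn4 with diet in WT (adjusted p = 0.0544), Tnfrsf12a with diet in Tg (0.0535) and Lum in the difference of effects (0.0668). The 8 arrays compared ended those of Anxa13 (0.0639), Tnfrsf12a (0.107) and Cela2a (0.114) on chow, Aqp1 (0.0985), Itgb5 (0.0569), Notch1 (0.0833) and Clec4g (0.0841) with diet in WT, and Sqstm1 (0.0599), Tnfrsf12a (0.0932) and Cela1 (0.0772) with diet in Tg. Median scaling ended those of Clec4g with diet in WT (0.0508) and Sqstm1 with diet in Tg (0.0708), and the term for replicates 1 and 2 against 3 and 4 that of Notch1 (0.0537). Krt19 could not be fitted among rows filtered by signal. The causes of these changes were not tested. Signals near background limit what can be seen of Krt19 and Krt7.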
